A study of Homo sapiens with 16 samples.

Results

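The genes described here are those of the human mitochondrial chromosome, taken as every row of the deposited gene count table whose chromosome is MT. The rule found 37 genes of 58735 in the table: 13 mRNAs for subunits of the respiratory chain, 2 rRNAs and 22 tRNAs. All 37 have the start, end and strand of GENCODE release 29 (GRCh38). By that annotation 28 lie on the plus strand and 9 on the minus strand, which holds MT-ND6 and 8 tRNAs.

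Mitochondrial DNA is a small circle that both strands transcribe as long precursors running through many genes. The mRNAs and rRNAs are cut out mostly at the tRNAs between them, and most mRNAs and both rRNAs then receive an A-tail. The proteins are membrane-bound core subunits of complexes I, III, IV and V, which are assembled with subunits encoded in the nucleus. In hepatocytes this chain takes the electrons that beta-oxidation of fatty acids delivers.

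HepaRG cells come from a human liver tumour and, after differentiation, form hepatocyte-like and cholangiocyte-like cells. Differentiated cells were kept in 2% DMSO and treated for 3 days, with 4 libraries in each of 4 groups. Control cells received the vehicle, 1% BSA. The formoterol group received 30 nM formoterol, an agonist of beta-adrenergic receptors. The fatty acid group received palmitic acid at 0.25 mM plus oleic acid at 0.5 mM. The combination group received both treatments. The sources used here do not say whether cells given formoterol alone also received BSA. Nor do they say that the replicates of a group were separate cultures, so the p-values cover the spread between libraries, which may be technical. RNA was selected on poly-T beads, which capture RNA through its A-tail. How much of each gene's RNA carried a tail, MT-ND6 and MT-TP included, was not measured. The sources do not give the strandedness of the counting, so reads from a gene and from the opposite strand cannot be told apart.

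Total counts ranged from 32471299 to 65673126 per library, with formoterol replicate 4 the deepest. Combination replicate 2 stood apart from its group. Its 11 hepatocyte markers summed to 23455 CPM (gene counts scaled to a fixed library total), against 47199 to 50698 CPM in the other libraries of its group, and its 6 proliferation markers to 815 CPM against 453 to 478 CPM. Some of the results that include it are also given without it. Of the 6 leukocyte and endothelial markers, CDH5, which marks endothelium, was at 0 in every library. PTPRC, which marks leukocytes, did not exceed 0.0960 CPM, CD68 0.0891 CPM and VWF 0.179 CPM. PECAM1 stood at 0.631 to 4.56 CPM and CD14 at 13.6 to 28.8 CPM. The mean of PECAM1 was 1.17 CPM with formoterol and 3.01 in the combination, without overlap. The 7 stellate cell and fibroblast markers summed to 655 to 840 CPM in control, 446 to 483 with formoterol, 763 to 907 with fatty acids and 593 to 867 in the combination. The 7 RNAs that stay in the nucleus or lack a tail summed to 734 to 1175 CPM in control, 510 to 575 with formoterol, 981 to 1491 with fatty acids and 736 to 1771 in the combination. Of these, RN7SL1, RN7SK, RMRP and RPPH1 were at 0 in every library. NEAT1 averaged 605 CPM in control and 325 with formoterol, and MALAT1 321 and 209. RN7SL2, which lacks a tail, averaged 12.4 CPM in control, 12.6 with formoterol, 9.58 with fatty acids and 16.7 in the combination. The 7 cholangiocyte markers summed to 167 to 173 CPM in control, 179 to 186 with formoterol, 317 to 370 with fatty acids and 290 to 325 in the combination. The hepatocyte markers summed to 24815 to 36448 CPM in control, 49101 to 51316 with formoterol and 47701 to 54174 with fatty acids. The proliferation markers summed to 187 to 227 CPM in control, 223 to 248 with formoterol and 304 to 414 with fatty acids. With fatty acids against control (edgeR adjusted p under 0.05) 8.93% of all genes rose and 7.62% fell. Of the markers tested, 2 of 5 cholangiocyte, 5 of 11 hepatocyte, 5 of 6 proliferation and 1 of 6 stellate cell and fibroblast markers rose. In that comparison 1 cholangiocyte, 1 hepatocyte and 1 stellate cell and fibroblast marker fell. With formoterol against control 10.3% of all genes were called, 5.76% as rises. Here 7 of 11 hepatocyte, 3 of 6 proliferation and 1 of 5 cholangiocyte markers rose. Of the stellate cell and fibroblast markers 1 of 6 fell, and of the nuclear-retained or tail-less RNAs 2 of 3. With the combination against formoterol 18.4% of all genes were called, 8.97% as falls. Of 11 hepatocyte markers 1 rose and 6 fell, and of 5 cholangiocyte markers 2 rose and 1 fell. Of 2 leukocyte and endothelial markers 1 rose and 1 fell. Rises were called for 6 of 6 proliferation markers, 2 of 6 stellate cell and fibroblast markers and 2 of 3 nuclear-retained or tail-less RNAs. The part of these lists in the results below was not tested.

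The ends of the gene models show what the A-tail does for these mRNAs. Of the 13 mRNAs, 6 stop with a partial stop codon, 5 of them with a single T and 1 with TA, and the A-tail completes the codon. The other 7 have a whole last codon. The last 30 bases of 6 mRNAs, from the GENCODE 29 transcripts and written 5′ to 3′ on the coding strand, are shown because these genes carry the comparisons that follow; capitals mark the stop letters.
MT-ND1 end: tacaatctccagcattccccctcaaaccTA
MT-CO1 end: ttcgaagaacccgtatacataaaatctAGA
MT-CO3 end: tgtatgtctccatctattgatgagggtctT
MT-ND4 end: accccgacatcattaccgggttttcctctT
MT-CYB end: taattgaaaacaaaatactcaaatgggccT
MT-ND6 end: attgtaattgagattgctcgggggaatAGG
MT-ND1 (MT:3307-4262), MT-CO1 (MT:5904-7445), MT-CO3 (MT:9207-9990), MT-ND4 (MT:10760-12137) and MT-CYB (MT:14747-15887) are on the plus strand. MT-ND6 (MT:14149-14673) is on the minus strand. MT-CO1 and MT-ND6 end in AGA and AGG, triplets that serve as stops in human mitochondria.

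The strands also differ in base composition. The first 60 bases of MT-ND6 and of its plus-strand neighbour MT-ND5 (MT:12337-14148) are shown with G in capitals.
MT-ND6 start: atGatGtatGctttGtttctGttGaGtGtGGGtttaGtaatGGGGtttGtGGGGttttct
MT-ND5 start: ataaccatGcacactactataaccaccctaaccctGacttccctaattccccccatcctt
The MT-ND6 stretch holds 21 G and 3 C, and the MT-ND5 stretch 2 G and 26 C. Over the whole gene MT-ND6 is 35.6% G and 7.05% C. The 12 mRNAs of the plus strand range from 6.28% to 16.2% G and from 29.5% to 36.0% C.

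The tRNAs were nearly unseen. Of the 22, 20 had 0 counts in all 16 libraries. These genes are 59 to 75 bases long. MT-TF, the phenylalanine tRNA, had 7 counts in all, 3 in fatty acids replicate 2 and 4 in combination replicate 4. MT-TP, the proline tRNA on the minus strand (MT:15956-16023), had 25732 counts in all and 1089 to 3515 in a library. It is the last gene of the annotated order, with no member after it, and MT-TF is the first, with none before it. Of the 22 tRNAs, 16 have a gene within 10 bases on both sides. Why MT-TP had more counts than the other tRNAs was not tested. Its sequence is shown because it was the only tRNA that entered the tests, with the last 3 bases of the gene model in capitals.
MT-TP: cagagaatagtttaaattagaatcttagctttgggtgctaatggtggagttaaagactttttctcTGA
After the filter on low counts 18121 genes of the whole table and 16 of the 37 members were tested: the 13 mRNAs, both rRNAs and MT-TP.

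The members ranged from some of the most abundant genes of these cells to genes with no counts. By total counts MT-RNR2, the 16S rRNA of the large mitochondrial ribosomal subunit, ranked 4 of all genes. MT-CO1, the catalytic subunit of complex IV, ranked 5 and MT-ND4, a proton-pumping subunit of complex I, ranked 10, whereas MT-ND3 ranked 794 and MT-TP 4451. Levels were set in order per length, as CPM scaled by TMM (trimmed mean of M values) factors, per kilobase of gene. In control cells MT-RNR2 stood at 10263 ± 322 (SD, n = 4) CPM per kilobase and MT-CO1 at 10251 ± 540, with overlapping libraries. MT-CO3, a core subunit of complex IV, followed at 5567 ± 420 and did not overlap MT-CO1. MT-ND4 (5502 ± 394), MT-CO2 (4291 ± 682), which receives electrons from cytochrome c, and MT-ATP6 (4285 ± 412), the proton channel subunit of complex V, each overlapped their neighbour in the order. MT-ND4L (3904 ± 326) and MT-CYB (3819 ± 337), the cytochrome b of complex III, came next and overlapped each other.

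The lower end of the order held the remaining complex I genes, MT-ATP8 and the smaller rRNA. MT-ND5, another pumping subunit of complex I, stood at 2834 ± 123 CPM per kilobase in control and did not overlap MT-CYB above it. MT-ATP8, an accessory subunit of complex V, stood at 2458 ± 371, MT-RNR1, the 12S rRNA of the small ribosomal subunit, at 2216 ± 308 and MT-ND6 at 2182 ± 212, each overlapping the next. MT-ND2 (1882 ± 121) overlapped MT-ND6. MT-ND1 (1144 ± 114) and MT-ND3 (547 ± 155) stood apart from their neighbours. The highest level was 18.8 times the lowest in control, 17.6 times with formoterol, 24.6 times with fatty acids and 20.4 times in the combination, with MT-RNR2 first and MT-ND3 last each time. MT-TP was left out of this order. With fatty acids MT-RNR1 ranked 8, against 11 in control, at 2881 ± 245 CPM per kilobase, between MT-ND4L and MT-CYB.

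Fatty acids lowered most mitochondrial mRNAs and raised the 12S rRNA. Together the 37 members held 6.72%, 6.49%, 7.58% and 6.86% of all gene counts in the 4 control libraries and 5.52%, 5.57%, 5.51% and 6.43% with fatty acids. The groups did not overlap, and the means were 6.91% ± 0.473 (SD, n = 4) and 5.76% ± 0.449, a difference of -1.15 percentage points. Nearly all of it lay in the mRNAs, which held 5.05% ± 0.384 in control and 3.98% ± 0.283 with fatty acids, without overlap. The 2 rRNAs held 1.86% ± 0.0965 and 1.77% ± 0.169, with overlapping libraries. In RNA from whole cultures, fewer cells of a type and less RNA per cell cannot be told apart.

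**Figure D1:**
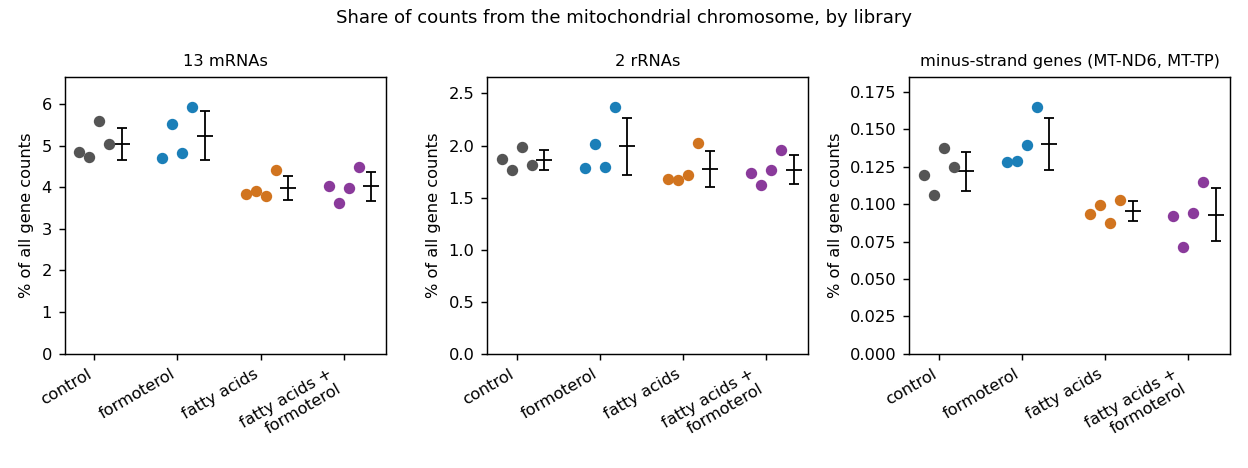
Share of all gene counts (%, vertical axes from 0) taken by the 13 mRNAs, the 2 rRNAs and the minus-strand genes of the mitochondrial chromosome, 1 point per library, with the mean and SD of each group of 4 beside the points. All 8 libraries with fatty acids lie below all 8 without them for the mRNAs, while the rRNA shares of the groups overlap.

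Of the 16 genes tested, 9 fell and 1 rose with fatty acids against control at an adjusted p under 0.05 (edgeR quasi-likelihood test, Benjamini-Hochberg over all genes). Over all genes tested 16.5% were called, 7.62% as falls and 8.93% as rises. The median log2 change of the 13 mRNAs was -0.37 and that of all genes 0.01. For 10 of the 13 mRNAs every fatty acid library lay below every control library, which held in the lower direction for 9.7% of all genes, and MT-RNR1 lay wholly above, which held in the higher direction for 11.3%.

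In complex I, which takes electrons from NADH, 5 of the 7 mRNAs fell. MT-ND5 read 5084, 4851, 5369 and 5239 normalized CPM in control and 3677, 3760, 3757 and 4040 with fatty acids. The groups were separate, and the log2 change was -0.43 ± 0.09 (SE), with an edgeR adjusted p of 0.00121. MT-ND4 went from 7582 ± 543 to 5882 ± 408 normalized CPM (SD, n = 4), a log2 change of -0.37. MT-ND4L, which overlaps the start of MT-ND4, changed by -0.36, MT-ND1 by -0.39 and MT-ND2 by -0.37 on the log2 scale. MT-ND1 lost its call when any of 6 single libraries was left out (controls 1, 3 and 4, fatty acids 1, 2 and 3), with an edgeR adjusted p of up to 0.0762, and MT-ND2 did so without control replicate 3, at 0.0504. MT-ND6 read 998 to 1264 normalized CPM in control and 822 to 964 with fatty acids. Its groups did not overlap, but the log2 change of -0.35 ± 0.13 had an edgeR adjusted p of 0.0723, which became 0.00424 without combination replicate 2. MT-ND3 ranged from 114 to 234 in control and from 112 to 172 with fatty acids, with overlap and an edgeR adjusted p of 0.288.

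MT-CYB, the single mitochondrial gene of complex III, read 4137, 3928, 4695 and 4669 normalized CPM in control. With fatty acids it read 3084, 2951, 2946 and 3424. All 4 treated libraries lay below all 4 controls, and the log2 change was -0.49 ± 0.11 (edgeR adjusted p = 0.00391).

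The 3 complex IV mRNAs did not move alike in the tests. MT-CO3 read 4501, 3922, 4697 and 4339 normalized CPM in control and 2972, 2683, 2918 and 3507 with fatty acids, a log2 change of -0.53 ± 0.12 (edgeR adjusted p = 0.00304) with no overlap. MT-CO1 read 15037, 15646, 16988 and 15556 in control and 13732, 13928, 13375 and 15640 with fatty acids. Its groups overlapped through fatty acids replicate 4, and the log2 change of -0.16 ± 0.08 was not called (edgeR adjusted p = 0.204). MT-CO2 changed by -0.23 ± 0.14 (edgeR adjusted p = 0.290), also with overlap. Counts of MT-CO3 per count of MT-CO1 were 0.299, 0.251, 0.276 and 0.279 in control and 0.216, 0.193, 0.218 and 0.224 with fatty acids, so the ratio was lower in every treated library than in every control library.

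Both complex V genes fell. MT-ATP8 read 530, 491, 415 and 599 normalized CPM in control and 326, 331, 346 and 330 with fatty acids. The treated libraries lay close together below all controls, and the log2 change of -0.61 ± 0.14 (edgeR adjusted p = 0.00492) was the lowest among the 16 genes. MT-ATP6 changed by -0.35 ± 0.11, with an edgeR adjusted p of 0.0346. It lost its call when any of 6 libraries was left out (controls 1, 3 and 4, fatty acids 1, 2 and 3), with an adjusted p of up to 0.118. The genes overlap, and the shared bases (MT:8527-8572, plus strand) are shown with the start codon of MT-ATP6 and the last codon of MT-ATP8 in capitals.
MT-ATP8 and MT-ATP6 shared bases: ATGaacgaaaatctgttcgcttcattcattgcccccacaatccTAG
Reads across these 46 bases fit both genes. The sources do not say how the authors' counting treated them. The 2 falls cannot be taken as independent, and a difference between the 2 genes cannot be told from read assignment.

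**Figure D2:**
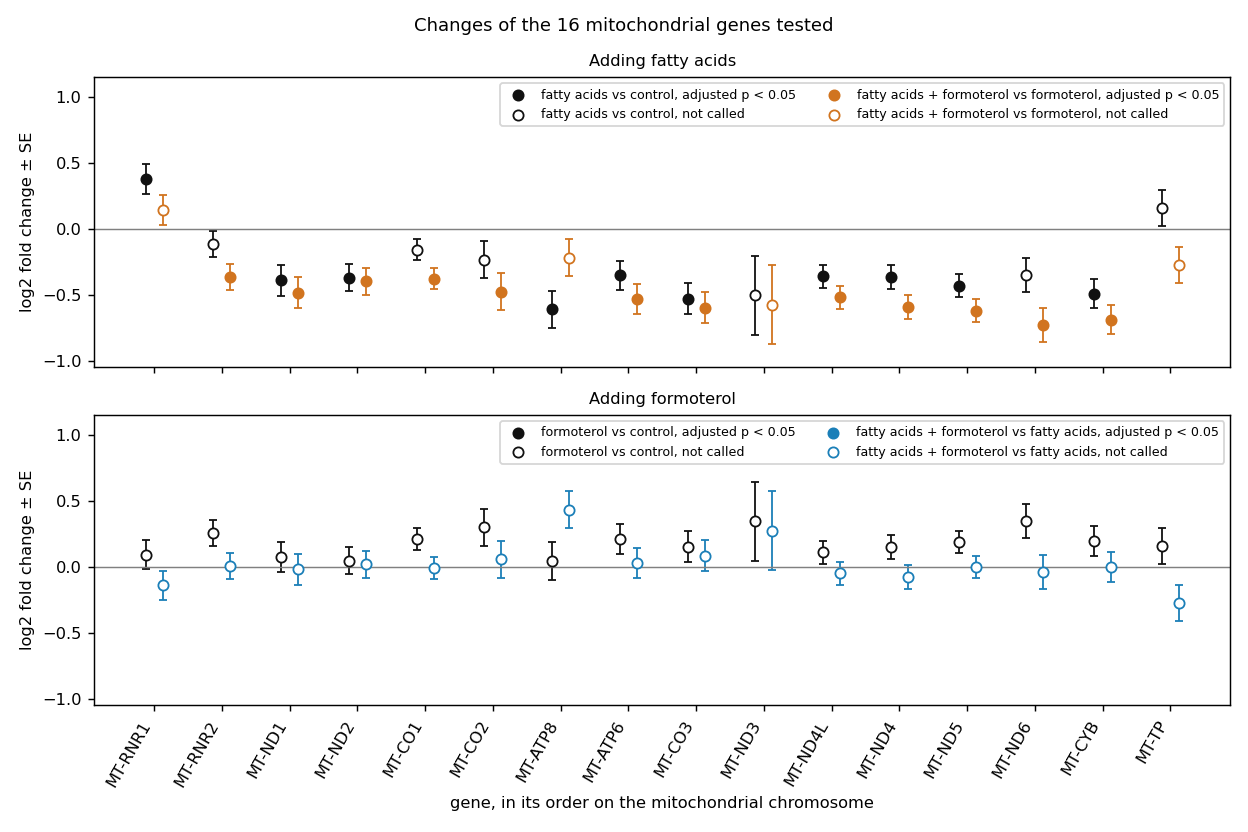
Log2 fold change with its SE (vertical axis) of the 16 mitochondrial genes tested, in chromosome order, for adding fatty acids (upper panel) and adding formoterol (lower panel), each without and with the other agent. Filled points passed an edgeR adjusted p of 0.05; the mRNAs lie below 0 in both fatty acid comparisons, MT-RNR1 lies above 0, and no point in the lower panel is filled.

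Of the 2 rRNAs, MT-RNR1 rose and MT-RNR2 was not called. MT-RNR1 read 2262, 1841, 2455 and 1898 normalized CPM in control and 2625, 2660, 2612 and 3098 with fatty acids. The groups did not overlap, and the log2 change was 0.38 ± 0.11 (edgeR adjusted p = 0.0238). The call was lost without control replicate 2 (0.32, adjusted p = 0.0778), without control replicate 4 (0.33, 0.0863) or without fatty acids replicate 4 (0.32, 0.0850). MT-RNR2 read 16214, 15399, 16563 and 15825 in control and 14125, 13654, 14406 and 16961 with fatty acids. Its groups overlapped through fatty acids replicate 4, and the log2 change was -0.11 ± 0.10 (edgeR adjusted p = 0.504). MT-TP changed by 0.16 ± 0.14 (edgeR adjusted p = 0.500).

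A ratio within each library does not depend on scaling between libraries. Counts of MT-RNR1 per count of MT-RNR2 were 0.140, 0.120, 0.148 and 0.120 in control and 0.115, 0.120, 0.109 and 0.125 with formoterol. With fatty acids the ratio was 0.186, 0.195, 0.181 and 0.183, and in the combination 0.170, 0.191, 0.161 and 0.157. All 8 libraries with fatty acids thus lay above all 8 without, and this holds with combination replicate 2 left out. The ends of the rRNA gene models are shown because capture on poly-T beads depends on the tail added there; neither gene encodes a stop codon, so no base is in capitals.
MT-RNR1 end: aagtgtactggaaagtgcacttggacgaac
MT-RNR2 end: tatacccacacccacccaagaacagggttt
MT-RNR1 lies at MT:648-1601 and MT-RNR2 at MT:1671-3229, both on the plus strand, with the valine tRNA MT-TV between them and 0 bases to spare on either side. Whether the amount of RNA or the share of it with a tail differed was not tested.

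**Figure D3:**
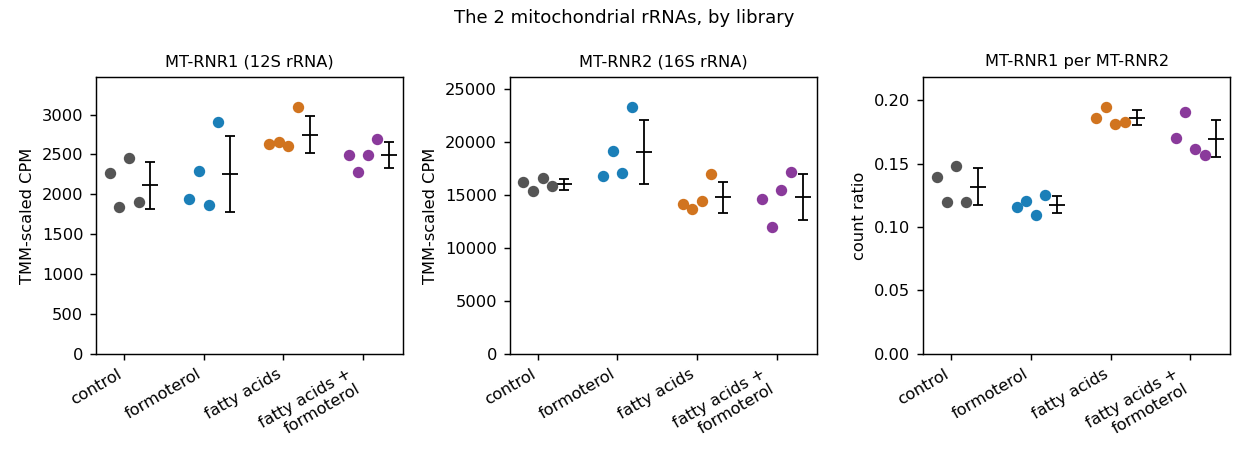
Normalized CPM of MT-RNR1 and of MT-RNR2 and the ratio of their counts (vertical axes from 0), 1 point per library, with the mean and SD of each group of 4 beside the points. The ratio is 0.157 to 0.195 in the 8 libraries with fatty acids and 0.109 to 0.148 in the 8 without.

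The make-up of the mitochondrial counts shifted accordingly. The rRNAs took 26.9% ± 0.714 (SD, n = 4) of them in control, 27.5% ± 0.759 with formoterol, 30.8% ± 0.676 with fatty acids and 30.5% ± 0.335 in the combination. The highest library without fatty acids stood at 28.6% and the lowest with them at 30.0%. MT-RNR1 alone went from 3.13% ± 0.305 in control to 4.82% ± 0.0577 with fatty acids. MT-CYB went from 6.47% ± 0.361 to 5.45% ± 0.110 and MT-CO3 from 6.48% ± 0.240 to 5.29% ± 0.254, both without overlap. MT-CO1 took 23.5% ± 0.862 and 24.9% ± 0.515, with overlap.

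Within the mRNA counts, complex IV took 47.0% ± 0.778 (SD, n = 4) in control and 50.0% ± 0.573 with fatty acids, without overlap. Complex I took 37.2% ± 0.260 and 35.5% ± 0.512, and complex III 8.86% ± 0.439 and 7.88% ± 0.142, also without overlap. Complex V took 6.97% ± 0.205 and 6.65% ± 0.223, with overlap. These shares add up to a fixed whole, so a higher share of one complex lowers the others.

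By strand, the minus-strand genes held 1.76% ± 0.0848 (SD, n = 4) of the mitochondrial counts in control, 1.95% ± 0.170 with formoterol, 1.66% ± 0.0932 with fatty acids and 1.60% ± 0.178 in the combination. The groups with and without fatty acids overlapped in these shares. MT-ND6 made up nearly all of these counts. Counts of MT-ND6 per count of its neighbour MT-ND5 on the other strand were 0.206 to 0.235 in control, 0.215 to 0.279 with formoterol, 0.219 to 0.246 with fatty acids and 0.204 to 0.256 in the combination, all overlapping.

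**Figure D4:**
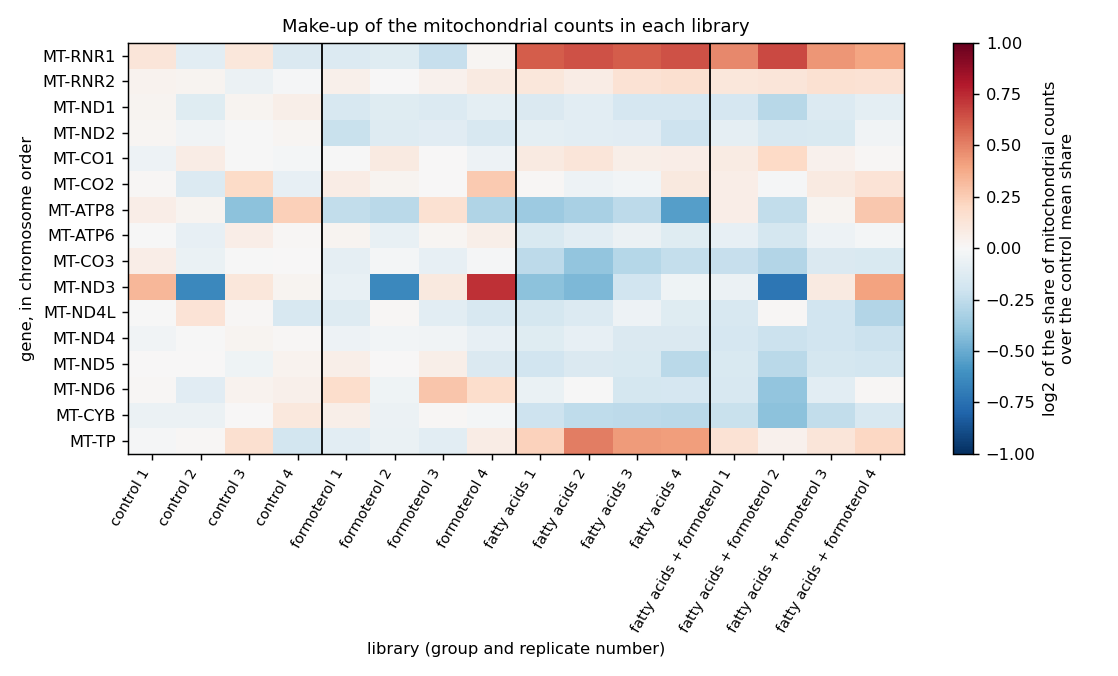
Each cell shows the log2 of a gene's share of the mitochondrial counts in one library over its mean share in control, for 16 genes in chromosome order (rows) and 16 libraries (columns), with red for higher and blue for lower. MT-RNR1 is red in all 8 libraries with fatty acids, MT-CYB and MT-CO3 are blue there, and MT-ND3 varies within every group.

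Formoterol alone moved no member past the threshold. All 16 changes against control were above 0, with a median of 0.17 on the log2 scale, but 6 of them turned below 0 under another setting: MT-ND1, MT-ND2, MT-ND4L, MT-ATP8 and MT-RNR1 under scaling by total counts alone (to -0.09 for MT-ND2), and MT-ND1, MT-ND2, MT-ND3 and MT-RNR1 without formoterol replicate 4 (to -0.09 for MT-ND3). MT-ATP8 also did so without control replicate 3 or formoterol replicate 3. EdgeR called 0 of 16 at an adjusted p under 0.05, where 10.3% of all genes were called. At an unadjusted p under 0.05 edgeR gave 5, and DESeq2 called 0 with 4 at that unadjusted level. Here and below, the share of all genes at an unadjusted p under 0.05 is not given. Such counts of members therefore have no background to be set against. The members held 6.48%, 7.53%, 6.61% and 8.31% of all counts with formoterol, a range that spans the controls. Without formoterol replicate 4, the highest of them, the difference from control turned from 0.321 to -0.0371 percentage points. The difference was 0.759 points (8.02% in control, 8.78% with formoterol) when the 20 nuclear genes with the most counts were left out of the total, 0.200 without the 2 rRNAs and 0.187 among protein-coding genes. Under scaling by total counts alone no member reached an unadjusted p under 0.05.

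The members with the lowest p were MT-ND6, MT-CO1 and MT-RNR2. MT-ND6 read 1139, 998, 1264 and 1182 normalized CPM in control and 1307, 1318, 1433 and 1768 with formoterol. All treated libraries lay above all controls, as held for 9.3% of all genes in the higher direction, and the log2 change of 0.35 ± 0.13 had an edgeR adjusted p of 0.0954. MT-RNR2 read 16810, 19110, 17065 and 23329 with formoterol, all above its 4 controls, with a log2 change of 0.25 ± 0.10 (edgeR adjusted p = 0.113). MT-CO1 changed by 0.21 ± 0.08 (edgeR adjusted p = 0.103), with overlap. Without combination replicate 2, a library of neither group, edgeR called 4 members as rises: MT-ND6 (0.35, adjusted p = 0.00613), MT-ND5 (0.19, 0.0148), MT-RNR2 (0.25, 0.0234) and MT-CO1 (0.21, 0.0312). That library enters through what the whole fit shares: the filter, the TMM factors, the estimate of spread and the adjustment. Which of these mattered was not tested, and the share of all genes called in that fit is not given here.

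Adding fatty acids to formoterol lowered 12 of the 16 genes and raised none (edgeR adjusted p under 0.05), where 18.4% of all genes were called and 8.97% fell. The members held 7.23% ± 0.856 (SD, n = 4) of all counts with formoterol and 5.80% ± 0.494 in the combination. The combination libraries stood at 5.77%, 5.24%, 5.74% and 6.44% and did not overlap the formoterol libraries. The difference was -1.44 percentage points, -1.25 without combination replicate 2 and -1.08 without formoterol replicate 4. This comparison has no library in common with fatty acids against control, but both use the same fit and its shared estimate of spread. Its formoterol libraries are those of formoterol against control, so it is not independent of that comparison.

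The 11 mRNAs that fell were all but MT-ND3 and MT-ATP8. Of these, 8 had every combination library below every formoterol library, which held in that direction for 11.2% of all genes. MT-ND6 went from 1307, 1318, 1433 and 1768 normalized CPM to 869, 599, 924 and 1119. The groups did not overlap, and the log2 change of -0.73 ± 0.13 (edgeR adjusted p = 0.000473) was the lowest of the 16. Over 24 alternative settings, each library left out in turn among them, this change ran from -0.870 to -0.586 and kept its call. MT-ND5 changed by -0.62 ± 0.09 (edgeR adjusted p = 3.76e-05), MT-CYB by -0.69 ± 0.11, MT-CO3 by -0.60 ± 0.12 and MT-ND4 by -0.59 ± 0.09, each without overlap. MT-CO1 fell here, by 0.38 ± 0.08 on the log2 scale (edgeR adjusted p = 0.00227), from 15994, 19965, 16390 and 20852 to 14190, 12453, 14210 and 15447 normalized CPM. The groups were separate, by a small margin between formoterol replicate 1 and combination replicate 4.

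The other 5 that fell were MT-ATP6 (-0.53), MT-ND4L (-0.52), MT-ND1 (-0.48), MT-CO2 (-0.48) and MT-ND2 (-0.40), and among the rRNAs MT-RNR2 (-0.36 ± 0.10, edgeR adjusted p = 0.0133). Without formoterol replicate 4, MT-RNR2 (-0.25, adjusted p = 0.0664) and MT-CO2 (-0.31, 0.111) were no longer called. MT-RNR1 changed by 0.14 ± 0.11 (edgeR adjusted p = 0.416), and without that library by 0.29 (0.0470), which edgeR called as a rise. MT-ATP8 read 436, 503, 589 and 567 normalized CPM with formoterol and 453, 296, 454 and 598 in the combination, a log2 change of -0.22 ± 0.14 (edgeR adjusted p = 0.321) with overlap.

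Adding formoterol to fatty acids moved no member past the threshold. EdgeR and DESeq2 each called 0 of 16, where edgeR called 2.8% of all genes, and each gave 1 member at an unadjusted p under 0.05. The shares of all counts, 5.76% and 5.80%, differed by 0.0343 percentage points, and by 0.220 without combination replicate 2. The 1 member was MT-ATP8, which read 326, 331, 346 and 330 normalized CPM with fatty acids and 453, 296, 454 and 598 in the combination. Combination replicate 2 lay below all fatty acid libraries and the other 3 above them, and the log2 change was 0.43 ± 0.14 (edgeR adjusted p = 0.122). Without that library it was 0.59 ± 0.10, with an edgeR adjusted p of 0.000620. Counts of MT-ATP8 per count of MT-ATP6 were 0.152, 0.151, 0.152 and 0.130 with fatty acids and 0.195, 0.167, 0.185 and 0.215 in the combination, with no overlap. Untreated libraries also differed widely in this ratio. MT-ATP8 and MT-ATP6 had 14816 and 117099 counts in control replicate 3, and 21439 and 104552 in control replicate 4. As above, a difference between these overlapping genes cannot be told from read assignment.

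The combination against control lowered 7 genes and raised none (edgeR adjusted p under 0.05; 14.3% of all genes called, 6.68% as falls). These were MT-ND1, MT-ND2, MT-ND4, MT-ND4L, MT-ND5, MT-CYB and MT-CO3, with log2 changes from -0.35 for MT-ND2 to -0.49 for MT-CYB. For 5 of them, MT-ND4, MT-ND4L, MT-ND5, MT-CYB and MT-CO3, the groups did not overlap, which held in the lower direction for 8.29% of all genes. MT-ND6 (-0.38, edgeR adjusted p = 0.0512) and MT-ATP6 (-0.32, 0.0602) lay just outside the threshold. MT-ND1 lost its call without control replicate 3 or 4 (edgeR adjusted p of up to 0.0657). MT-ND2 lost it without control replicate 1, 3 or 4 and with only the groups compared in the fit (up to 0.0708). The controls are the same as in the other comparisons with control, so these results are not independent of them.

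The interaction asks whether the effect of one agent differed with the other. EdgeR called 0 of 16 members, with 2 at an unadjusted p under 0.05, and DESeq2 called 0, with 1, where edgeR called 5.5% of all genes. The estimates ran from -0.43 for MT-TP (edgeR adjusted p = 0.213) to 0.39 for MT-ATP8 (0.292) on the log2 scale. For MT-CO1 it was -0.22 ± 0.11 (0.292), so the fall seen beside formoterol is not shown to differ from the smaller change without it. Without combination replicate 2, MT-ATP8 reached 0.55 ± 0.14 with an edgeR adjusted p of 0.0186.

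Nuclear copies of mitochondrial sequence can take reads from the genes they resemble. The table lists 407 such copies by name, of which 9 were tested, and together they held 0.810% to 1.05% of the mitochondrial counts in a library. MTATP6P1 (chromosome 1, 633696 to 634376, plus strand) differs from MT-ATP6 at 10 of 681 aligned bases and held 20.2% as many counts, from 18.7% to 21.3% in a library. Its log2 change with fatty acids was -0.28 ± 0.12 (edgeR adjusted p = 0.131), and beside formoterol -0.60 ± 0.12 (0.00175). MTND2P28 (chromosome 1, 629640 to 630683) is 98.4% identical to MT-ND2 and held 1.67% as many counts. It fell with fatty acids, by 0.75 on the log2 scale (edgeR adjusted p = 0.0259). MTND4P20 on chromosome 10, 71.1% identical to the part of MT-ND4 it aligns with, held 0.135%. The levels of MT-ATP6 and MT-ND2 are therefore uncertain by the reads split with these copies.

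The nuclear genes that serve mitochondrial DNA and RNA were followed in 8 lists of 99 measured genes. With fatty acids 18 fell and 1 rose (edgeR adjusted p under 0.05), with a median log2 change of -0.07 over the 99. The falls are 18.2% of the list, against 7.62% of all genes tested. Of the 9 genes of mitochondrial DNA transcription edgeR called 0 in each of the 5 pairwise comparisons, with 0 to 2 at an unadjusted p under 0.05. TFAM, which packages mitochondrial DNA and starts its transcription, stood at 94.2 ± 5.77 normalized CPM (SD, n = 4) in control and 100 ± 9.58 with fatty acids. POLRMT, the mitochondrial RNA polymerase, stood at 40.2 ± 5.42 and 37.3 ± 2.19. Of the 7 nuclear regulators, 2 fell: PPARGC1A, a coactivator of mitochondrial genes, from 104 ± 6.31 to 61.5 ± 5.59 normalized CPM (log2 change -0.76), and its partner receptor ESRRA from 70.4 ± 5.82 to 42.8 ± 2.20 (-0.72).

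Among 16 genes that cut and mature mitochondrial RNA, 3 fell with fatty acids. FASTKD1, an RNA-binding protein of mitochondria, changed by -0.76 ± 0.08, HSD17B10, a subunit of the RNase P that cuts before tRNAs, by -0.46 ± 0.11 and TBRG4 by -0.35 ± 0.07 on the log2 scale. Of 7 genes of RNA stability and decay, DHX30, a helicase of mitochondrial RNA granules, fell by 0.34. Of 11 genes listed under rRNA modification 2 fell, NSUN4 (-0.22) and TRUB2 (-0.25). METTL15, of the same list, rose by 0.29 ± 0.09 (edgeR adjusted p = 0.0251), and its interaction was -0.44 ± 0.12 (0.0393). Of 12 translation factors 4 fell, among them OXA1L (-0.33), which inserts the new proteins into the membrane, and TUFM (-0.27), the mitochondrial elongation factor. Of 20 genes of tRNA charging 3 fell, with CARS2 at -0.47, and of 17 genes of replication and nucleotide supply 3 fell, with TK2, a kinase for mitochondrial DNA precursors, at -0.45. In these 6 lists the falls came to between 14.3% and 33.3% of a list's genes, with at most 4 genes in each.

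Of 76 nuclear subunits of the respiratory chain measured, edgeR called 18 as falls with fatty acids and 0 as rises, with a median log2 change of -0.30. These are 23.7% of the list, against 7.62% of all genes, and most of the 76 were not called. Among them were ATP5F1B (-0.40), the catalytic subunit of complex V, and NDUFS1 (-0.23) and NDUFV1 (-0.30) of complex I. Of the 37 nuclear complex I subunits 6 fell, of 9 of complex III 3, of 11 of complex IV 3 and of 15 of complex V 6, while edgeR called 0 of the 4 of complex II, which has no mitochondrially encoded subunit, with 1 at an unadjusted p under 0.05. Beside formoterol 41 of the 76 fell (53.9%, against 8.97% of all genes) and 1 rose, with a median of -0.44. The 4 of complex II were all among those that fell there, with a median of -0.43. Of the 99 genes of the other lists 25 fell (25.3%) and 3 rose. With formoterol alone 9 of the 76 rose (11.8%, against 5.76% of all genes) and none fell, among them SDHA of complex II (0.30) and UQCRC1 of complex III (0.27). When formoterol was added to fatty acids edgeR called 0 of the 76, with 6 at an unadjusted p under 0.05.

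**Figure D5:**
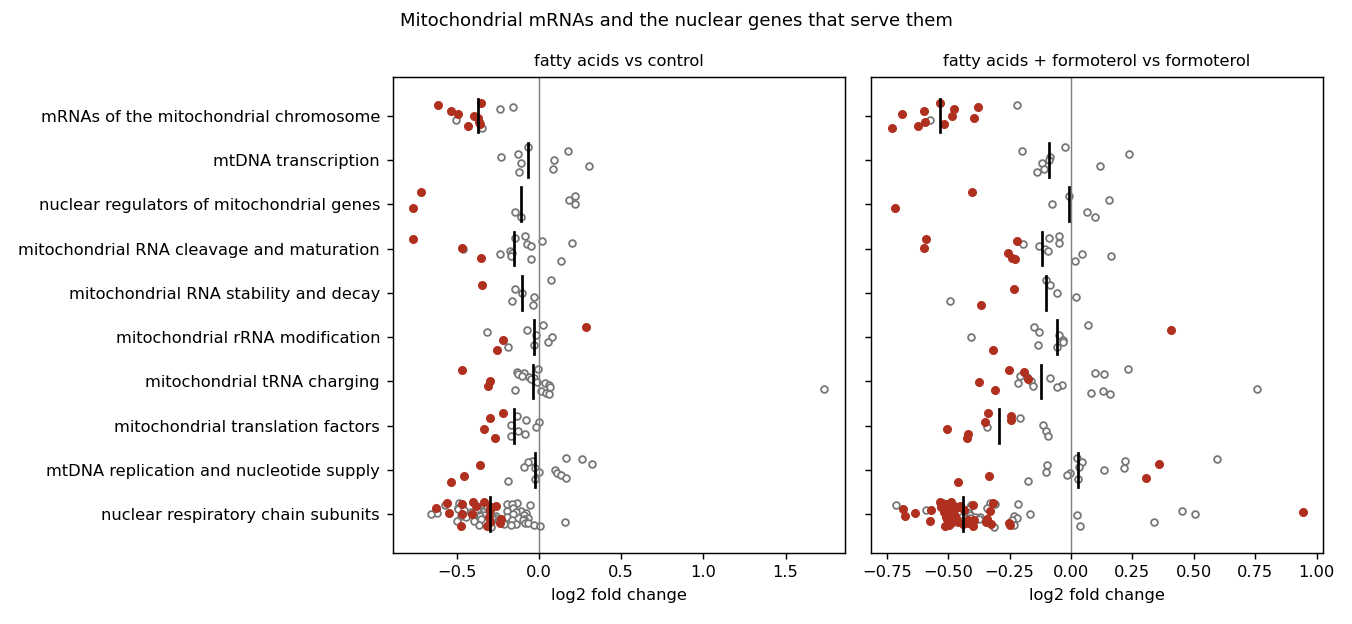
Log2 fold change (horizontal axes) of the 13 mitochondrial mRNAs and of the nuclear genes in 9 groups for fatty acids against control (left) and for the combination against formoterol (right), 1 point per gene; red points passed an edgeR adjusted p of 0.05 and black bars are medians. The medians of the mitochondrial mRNAs are -0.37 and -0.53, those of the nuclear respiratory chain subunits -0.30 and -0.44, and the row of mitochondrial DNA transcription holds no red point.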

How the data were processed

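RNA of 16 libraries in 4 groups of 4 was measured. The authors deposited raw counts per gene. Per the submitters' processing notes the tools were HISAT2 2.0.5 and DESeq2; the notes also list mm39, a mouse build, although the gene IDs and names are human. Which program counted, with which strand setting, and what it did with reads that fit several genes is not given in the sources. Per the labels' protocols RNA was selected on poly-T beads and copied from random primers.

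Here edgeR 4.0.16 (R 4.3.3) was run on the counts as deposited: filterByExpr, which kept 18121 genes and 99.94% of counts, TMM factors (0.904 to 1.13), a quasi-likelihood fit of 4 group means to all 16 libraries, and Benjamini-Hochberg adjustment over all genes tested at 0.05. Levels are CPM scaled by TMM factors. Shares are percent of total gene counts, except shares of mitochondrial or mRNA counts, and have no test. Summed marker levels are CPM without those factors. The interaction is combination minus fatty acids minus formoterol plus control. Members are the rows on MT. All mRNAs and rRNAs are named, the tRNAs with the most counts, up to 3 genes per nuclear list with the smallest p among those called, TFAM, POLRMT and PPARGC1A, and the 3 nuclear copies with the most counts. MT-TF and MT-TP were the tRNAs with any count. The 24 gene lists hold the members by complex, nuclear genes of mitochondrial DNA transcription, its regulators, RNA cleavage, RNA stability, rRNA modification, tRNA charging, translation and replication, nuclear subunits of the 5 complexes, and markers. Members and lists were chosen with earlier results of these data known. Sequences come from the GENCODE 29 transcripts and were read with Biopython 1.88; tables and figures used pandas 2.3.3, numpy 2.4.6 and matplotlib 3.10.9.

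Alternatives were DESeq2 size factors, total counts only, scaling from nuclear genes only, no filter, a minimum of 1 CPM in 4 libraries, the test of DESeq2 1.42.0, the replicate number as a block, only the groups compared, each library left out in turn, and other denominators for the shares. In data simulated for fatty acids against control over 18121 genes, 32% of 1.3-fold, 64% of 1.5-fold and 92% of 2-fold changes were found, and 6.49% of calls were false. No 2 libraries of a group agreed within sampling noise (chi-square per gene 6.62 to 106).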

Additional observations from a re-analysis of the deposited data

Results flagged for a closer look

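One library, fatty acids replicate 4, lay far from the other 3 of its group in 5 measures, of 92 groups of 4 values examined for a value standing apart; chance alone marks about 1 in 20 such groups, and the measures share their counts. Its mitochondrial genes held 6.43% of all counts against 5.51% to 5.57% in the others, and its 2 rRNAs 2.03% against 1.67% to 1.71%. MT-RNR1 read 3098 normalized CPM against 2612 to 2660, and MT-ND2 read 1612 against 1476 to 1499. Its MT-ATP8 per MT-ATP6 count ratio was 0.130 against 0.151 to 0.152. Without this library the log2 change of MT-RNR1 with fatty acids was 0.32 (edgeR adjusted p = 0.0850).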

How the results depend on the processing

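Over the alternatives, the number of members called with fatty acids against control was 7 to 13 and for the combination against formoterol 9 to 15, against 10 and 12 as reported. With no filter on low counts, the members called were 8 for formoterol against control, 2 for the combination against fatty acids, 11 for the combination against control and 3 for the interaction. With only the groups compared in the fit, formoterol against control gave 3. With 1 library left out at a time, the counts ranged from 0 to 4 for formoterol against control (1 without formoterol replicate 1, 4 without combination replicate 2), from 0 to 1 for the combination against fatty acids and from 0 to 1 for the interaction (both 1 without combination replicate 2), and from 5 to 9 for the combination against control. The causes were not tested. The share of all genes called under each alternative is not given here, so these counts have no background to be set against. Of the values of single genes, 2201 of 2288 kept their side of the threshold, 27 were no longer called and 60 became called. The sign turned in 66, all of genes not called as reported.

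The replicate numbers showed no clear pairing of the libraries. Over 24 pairs with the same number in different groups, deviations from the group means correlated at -0.113 to 0.0825 across genes. The 72 other pairs ran from -0.101 to 0.138. In 17 of 48 comparisons of a library with another group it correlated best with its own number. A weak pairing is not excluded by this. With the replicate number as a block, formoterol against control gave 2 members in place of 0. Changes under 1.5-fold, the size of most changes here, were often missed in simulated data. The changed genes there were drawn at random from all but the lowest levels, so those rates need not hold for the members. A gene not called may still differ.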
